A study of Mus musculus with 8 samples.

Results

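A set of 9 receptor genes of myeloid cells, of the 54446 genes in the count tables, was followed through sorted mouse eosinophils: the C-type lectin receptors Clec12a, Clec4a2 and Clec7a, the CD300 receptors Cd300lb, Cd300lf and Cd300a, and the paired or sialic acid-binding receptors Pirb, Siglece and Lilrb4a. They were taken by symbol from a list chosen from count levels in these same libraries, so their levels and fold changes are given as a description, and calls from the fits over all genes are only counted beside the share called of all genes. A count was found for 8 of the 9, and Lilrb4a had 0 counts in all 8 libraries. The study concerns eosinophils in a mouse model of asthma. RNA was sequenced by CEL-Seq, a method that amplifies RNA linearly and counts tags near the 3' end of each transcript, in libraries from C57BL/6 mice. The groups were SiglecFhi/CD101+ eosinophils (n = 2), Siglec-Fint/CD101- eosinophils (n = 2) and resident eosinophils (n = 4, replicates 3 to 6). Siglec-F is a sialic acid-binding lectin of the mouse eosinophil surface and CD101 is an immunoglobulin-like surface protein. The labels give no allergen, vehicle, age, sex or animal for any group and do not say whether animals were pooled, so these cannot be told apart from the groups, and every spread below may be technical.

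These receptors set how strongly a myeloid cell answers to microbes, dead cells and its neighbours. Inhibitory members carry tyrosine motifs in the cytoplasmic tail, called ITIMs, which recruit the phosphatases SHP-1 and SHP-2, whereas activating members signal through Syk, either directly or through adaptors such as DAP12 and the Fc receptor gamma chain. Closely related activating and inhibitory receptors often lie side by side in the genome, and eosinophils, neutrophils, mast cells and macrophages each carry several of them. In mouse eosinophils, the product of Pirb and CD300f, the product of Cd300lf, have been studied as regulators of migration and cytokine responses.

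Most of the 9 genes lie in clusters. On GRCm38 (GENCODE M21), Cd300a (chr11:114890041-114904654, plus strand), Cd300lb (chr11:114922781-114934386, minus strand) and Cd300lf (chr11:115116214-115133992, minus strand) share a stretch of chromosome 11, with 18.1 kb between Cd300a and Cd300lb and 182 kb between Cd300lb and Cd300lf. Clec12a (chr6:129342691-129365303, plus strand) and Clec7a (chr6:129461591-129472779, minus strand) lie 96.3 kb apart on chromosome 6, where Clec4a2 (chr6:123106428-123143999, plus strand) is found as well. Pirb (chr7:3711409-3720391, minus strand) and Siglece (chr7:43651070-43660161, minus strand) are on chromosome 7, and Lilrb4a (chr10:51490956-51496611, plus strand) is on chromosome 10. GENCODE M21 classes Clec7a as a polymorphic pseudogene.

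The promoters of the 3 CD300 genes are shown because these neighbours had 3 different profiles over the same libraries, and those of Clec12a and Clec7a because these neighbours differed as well. Each line is the 250 bases before the RefSeq start (GRCm38.p6), written 5' to 3' on the gene's own strand, at chr11:114934372-114934621 (minus strand) for Cd300lb, chr11:115133993-115134242 (minus strand) for Cd300lf, chr11:114889791-114890040 (plus strand) for Cd300a, chr6:129349994-129350243 (plus strand) for Clec12a and chr6:129472780-129473029 (minus strand) for Clec7a. Capitals mark matches, on either strand, to the motifs searched.
Cd300lb: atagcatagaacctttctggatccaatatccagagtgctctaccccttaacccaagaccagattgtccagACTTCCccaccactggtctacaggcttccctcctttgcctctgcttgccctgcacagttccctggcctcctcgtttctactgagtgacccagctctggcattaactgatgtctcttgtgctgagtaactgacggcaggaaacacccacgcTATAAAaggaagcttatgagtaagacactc
Cd300lf: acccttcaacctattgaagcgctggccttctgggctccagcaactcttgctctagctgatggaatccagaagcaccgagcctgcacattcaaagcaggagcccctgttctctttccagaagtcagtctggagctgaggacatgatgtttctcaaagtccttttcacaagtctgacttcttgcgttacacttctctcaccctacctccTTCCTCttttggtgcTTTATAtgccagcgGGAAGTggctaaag
Cd300a: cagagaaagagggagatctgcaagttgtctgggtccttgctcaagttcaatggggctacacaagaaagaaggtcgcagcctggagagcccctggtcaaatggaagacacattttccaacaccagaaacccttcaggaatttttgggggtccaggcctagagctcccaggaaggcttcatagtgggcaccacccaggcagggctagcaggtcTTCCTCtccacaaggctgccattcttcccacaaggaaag
Clec12a: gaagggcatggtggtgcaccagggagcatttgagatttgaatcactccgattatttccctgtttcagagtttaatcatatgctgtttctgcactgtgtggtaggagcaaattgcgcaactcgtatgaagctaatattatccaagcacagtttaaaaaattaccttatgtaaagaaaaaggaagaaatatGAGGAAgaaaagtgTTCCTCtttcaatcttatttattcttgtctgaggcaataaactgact
Clec7a: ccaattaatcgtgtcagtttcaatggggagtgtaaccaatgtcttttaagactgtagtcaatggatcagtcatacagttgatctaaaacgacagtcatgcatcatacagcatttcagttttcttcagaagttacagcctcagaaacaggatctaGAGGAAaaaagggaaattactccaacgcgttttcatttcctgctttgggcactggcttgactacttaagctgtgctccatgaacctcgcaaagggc
The motifs were GAGGAA (the core of the site of PU.1, a myeloid transcription factor), GGAAGT (an ETS site), TGACTCA (AP-1), TATAAA (the TATA box) and TTGCAA (C/EBP), and a GAGGAA match can overlap a GGAAGT match. GAGGAA was found in 6 of the 8 members with a RefSeq promoter (Clec12a, Clec7a, Cd300lf, Cd300a, Pirb and Siglece), against 25.9% of the promoters of 27025 genes. GGAAGT was found in 4 (Clec4a2, Cd300lb, Cd300lf and Pirb), against 22.2%, and TATAAA in 3 (Clec4a2, Cd300lb and Cd300lf), against 14.3%. TGACTCA and TTGCAA were found in 0 of the 8, against 5.16% and 6.09% of all genes. Cd300lb and Cd300lf both held TATAAA and GGAAGT matches, and Cd300a held neither, having 1 match to GAGGAA. Such matches describe the letters of these windows.

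The libraries were uneven in depth and composition. Totals were 3109428 and 1513517 counts in the SiglecFhi/CD101+ libraries, 1517159 and 2990294 counts in those of Siglec-Fint/CD101- cells and 5600610 to 11583550 in the resident libraries, and mitochondrial genes took 70.6% to 82.2% of counts in SiglecFhi/CD101+, 69.9% to 83.9% in Siglec-Fint/CD101- and 38.6% to 61.8% in the resident libraries. A count of 3, used as the floor of detection, equals 1.59 and 1.83 CPM (counts relative to a common library total, scaled by TMM, the trimmed mean of M-values) in the SiglecFhi/CD101+ libraries, 2.18 and 1.86 CPM in the Siglec-Fint/CD101- libraries and 0.199 to 0.501 CPM in the resident libraries. Of 12 eosinophil markers, 7 were detected in SiglecFhi/CD101+, 8 in Siglec-Fint/CD101- libraries and 11 in the resident ones. Their sums were 149 to 450 CPM in SiglecFhi/CD101+, 168 to 296 CPM in Siglec-Fint/CD101- and 188 to 455 CPM in resident libraries. Epx (eosinophil peroxidase) and Il5ra (interleukin-5 receptor) were at 0 in all 4 subset libraries, and Siglecf was at 0 in Siglec-Fint/CD101- libraries, against the labels. Resident means of Epx (0.438 CPM), Il5ra (0.989 CPM), Ear6 (0.904 CPM) and Cebpe (0.0197 CPM) were below the floor of each subset library. A marker at such a level could be missed there, so the numbers of markers detected cannot be set against each other between groups. Cd101 had 3 counts in the SiglecFhi/CD101+ libraries (mean 0.835 CPM), 1 count in Siglec-Fint/CD101- libraries and a mean of 24.3 CPM in resident libraries, which goes against the CD101+ label. Siglecf averaged 18.5 CPM in SiglecFhi/CD101+ and 20.2 CPM in resident libraries. Some other eosinophil markers were higher in a subset. Prg2 averaged 137 CPM in SiglecFhi/CD101+, 1.29 CPM in Siglec-Fint/CD101- and 8.55 CPM in resident libraries. Alox15 averaged 50.3, 28.1 and 4.87 CPM in the same order, and Ear6 averaged 0, 36.6 and 0.904 CPM. Ear1 and Ear2 had their highest means in resident libraries (47.8 and 213 CPM). RNA levels do not settle surface protein, and all values below are those of the groups as labelled. Neutrophil markers summed to 312 to 1100 CPM in SiglecFhi/CD101+ libraries (8 of 13 detected), 596 to 1530 CPM in Siglec-Fint/CD101- libraries (8 of 13) and 159 to 500 CPM in resident libraries (12 of 13), with Mpo, Elane and Camp at 0 in both subsets. Retnlg supplied most of these sums, with means of 594 CPM in SiglecFhi/CD101+, 1000 CPM in Siglec-Fint/CD101- and 237 CPM in resident libraries. Other markers of that list had another order, such as Csf3r with 5.89 CPM in SiglecFhi/CD101+, 1.24 CPM in Siglec-Fint/CD101- and 6.69 CPM in resident libraries, and Cxcr2 with 35.3 CPM in SiglecFhi/CD101+, 0 in Siglec-Fint/CD101- and 7.94 CPM in resident libraries. Macrophage markers summed to 778 to 931 CPM in SiglecFhi/CD101+ libraries (9 of 10), 1060 to 1230 CPM in Siglec-Fint/CD101- libraries (10 of 10) and 833 to 1490 CPM in resident libraries (10 of 10). Lyz2 supplied most of them (means of 663 CPM in SiglecFhi/CD101+, 675 CPM in Siglec-Fint/CD101- and 751 CPM in resident libraries). Csf1r stood at 7.46 CPM in SiglecFhi/CD101+ and 13.9 CPM in Siglec-Fint/CD101-, against 79.8 CPM in resident libraries. Cd68 stood at 4.45 CPM in SiglecFhi/CD101+ and 12.7 CPM in Siglec-Fint/CD101-, against 59.4 CPM in resident libraries. Adgre1, Marco and Mertk also had their highest means in resident libraries. C1qb, C1qc, C1qa and Ms4a7 did not. C1qb averaged 112 CPM in SiglecFhi/CD101+, 259 CPM in Siglec-Fint/CD101- and 159 CPM in resident libraries. C1qc averaged 2.77, 139 and 113 CPM in the same order, and C1qa averaged 26.6, 18.3 and 20.4 CPM. Monocyte markers summed to 154 to 244 CPM in SiglecFhi/CD101+ libraries (4 of 6), 145 to 216 CPM in Siglec-Fint/CD101- libraries (6 of 6) and 287 to 349 CPM in resident libraries (6 of 6). Ace and Nr4a1 had the highest means of that list in each group, in different orders. Ace averaged 84.3 CPM in SiglecFhi/CD101+, 124 CPM in Siglec-Fint/CD101- and 107 CPM in resident libraries, and Nr4a1 averaged 99.8, 35.2 and 143 CPM. Dendritic cell markers, of which 8 of 8 were detected in each group, summed to 136 to 149 CPM in SiglecFhi/CD101+, 250 to 265 CPM in Siglec-Fint/CD101- and 258 to 639 CPM in resident libraries. Itgax and Ccl22 had the highest resident means of that list (199 and 165 CPM). Flt3, Xcr1 and Batf3 were also highest in resident libraries. Zbtb46 (56.6 against 30.5 CPM), Ccr7 (58.2 against 38.7 CPM) and Cd209d (19.6 against 8.81 CPM) averaged more in Siglec-Fint/CD101- than in resident libraries. Epithelial markers, most of them Scgb1a1 and Sftpc counts, summed to 3380 to 3410 CPM in SiglecFhi/CD101+, 3340 to 6350 CPM in Siglec-Fint/CD101- and 623 to 10200 CPM in resident libraries. B cell markers summed to 82.3 to 285, 151 to 268 and 32.8 to 142 CPM in the same order. Neutrophils, monocytes, macrophages and dendritic cells are known to express several of the 9 receptors. The part of such cells, or of B and epithelial cells, in the values below was not tested. In bulk RNA, fewer cells of a type and less RNA per cell cannot be told apart.

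The 3 CD300 genes were counted in every library, and each was highest in a different group. Cd300lb, an activating receptor that signals through DAP12, stood highest in Siglec-Fint/CD101- libraries. Cd300lf, a receptor of phosphatidylserine and ceramide with inhibitory motifs, stood highest in SiglecFhi/CD101+ libraries. Cd300a, an inhibitory receptor of phosphatidylserine and phosphatidylethanolamine, had its highest mean in resident libraries.

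Cd300lb had 1.06 and 3.05 CPM in SiglecFhi/CD101+ libraries (2 and 5 counts), 42.9 and 76.4 CPM in Siglec-Fint/CD101- libraries (59 and 123 counts), and 0.836, 6.13, 4.98 and 8.78 CPM in resident libraries (5, 78, 71 and 132 counts). Both Siglec-Fint/CD101- libraries were above all 6 others, whereas the SiglecFhi/CD101+ libraries lay within the resident range. The means were 2.05 ± 1.41 CPM in SiglecFhi/CD101+ (SD, n = 2), 59.6 ± 23.7 CPM in Siglec-Fint/CD101- (SD, n = 2) and 5.18 ± 3.30 CPM in resident libraries (SD, n = 4). From the summed counts of a group over its TMM-scaled totals, the level in Siglec-Fint/CD101- libraries was 10.2 times that in resident libraries (exact 95% interval 8.45 to 12.4), and 30.7 times that in SiglecFhi/CD101+ libraries (14.6 to 77.4). Such intervals cover counting error only and not the spread between libraries. The fitted log2 difference was -1.34 ± 1.36 (SE) for SiglecFhi/CD101+ against resident, 3.52 ± 1.18 for Siglec-Fint/CD101- against resident and -4.86 ± 1.67 for SiglecFhi/CD101+ against Siglec-Fint/CD101-.

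Cd300lf had 41.9 and 40.9 CPM in SiglecFhi/CD101+ libraries (79 and 67 counts), 24.0 and 20.5 CPM in Siglec-Fint/CD101- libraries (33 and 33 counts), and 22.1, 20.2, 14.6 and 20.3 CPM in resident libraries (132, 257, 208 and 306 counts). It was the most even of the 3 genes within groups. Both SiglecFhi/CD101+ libraries were above the other 6, and the Siglec-Fint/CD101- and resident libraries overlapped. With mitochondrial counts left out of the totals, the Siglec-Fint/CD101- libraries (72.2 and 68.5 CPM) lay above the resident ones (44.6 to 61.7 CPM). The means were 41.4 ± 0.723 CPM in SiglecFhi/CD101+ (SD, n = 2), 22.2 ± 2.48 CPM in Siglec-Fint/CD101- (SD, n = 2) and 19.3 ± 3.25 CPM in resident libraries (SD, n = 4). The level in SiglecFhi/CD101+ libraries was 2.2 times that in resident libraries (exact 95% interval 1.84 to 2.62). The fitted log2 difference from resident was 1.1 ± 0.93 for SiglecFhi/CD101+ and 0.20 ± 0.957 for Siglec-Fint/CD101-, and with library totals alone as the scaling these values were 0.47 and -0.63, so that the second changed sign. Rab37, which overlaps Cd300lf on the opposite strand, had 1 and 48 counts in SiglecFhi/CD101+ libraries, 0 counts in both Siglec-Fint/CD101- libraries and 7, 9, 35 and 25 counts in resident libraries. The strand setting of the counting is not given, so reads of the 2 genes cannot be told apart.

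Cd300a had 16.4 and 11 CPM in SiglecFhi/CD101+ libraries (31 and 18 counts), 3.64 and 6.83 CPM in Siglec-Fint/CD101- libraries (5 and 11 counts), and 26.9, 48.6, 7.92 and 58.8 CPM in resident libraries (161, 618, 113 and 884 counts). Both Siglec-Fint/CD101- libraries were below the other 6. The SiglecFhi/CD101+ libraries were below 3 of the resident libraries and above resident replicate 5, the lowest of its group. The means were 13.7 ± 3.86 CPM in SiglecFhi/CD101+ (SD, n = 2), 5.23 ± 2.26 CPM in Siglec-Fint/CD101- (SD, n = 2) and 35.5 ± 22.7 CPM in resident libraries (SD, n = 4). The fitted log2 difference was -1.37 ± 1.18 for SiglecFhi/CD101+ and -2.76 ± 1.30 for Siglec-Fint/CD101-, each against resident.

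Set against each other within a library, which needs no scaling between libraries, the 3 genes had a different leader in each subset. Cd300lf held 70.5% and 74.4% of their summed counts in the SiglecFhi/CD101+ libraries, 34.0% and 19.8% of them in Siglec-Fint/CD101- libraries and 44.3%, 27.0%, 53.1% and 23.1% in the resident libraries. Cd300lb held 1.79% and 5.56% in SiglecFhi/CD101+, 60.8% and 73.7% in Siglec-Fint/CD101- libraries, with 1.68%, 8.18%, 18.1% and 9.98% in resident libraries. For Cd300lb the exact 95% intervals were 0.217% to 6.30% and 1.83% to 12.5% in SiglecFhi/CD101+, against 50.4% to 70.6% and 66.3% to 80.2% in Siglec-Fint/CD101-. Cd300a held 27.7% and 20% in SiglecFhi/CD101+, 5.15% and 6.59% in Siglec-Fint/CD101- libraries, with 54.0%, 64.8%, 28.8% and 66.9% in resident libraries. Cd300a was the leader in 3 of the 4 resident libraries and Cd300lf in resident replicate 5. There were 0.0253 and 0.0746 Cd300lb counts for each Cd300lf count in SiglecFhi/CD101+, 1.79 and 3.73 in Siglec-Fint/CD101- and 0.0379 to 0.431 in resident libraries. The ratio was thus higher in both Siglec-Fint/CD101- libraries than in the other 6, among which the groups overlapped.

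**Figure D1:**
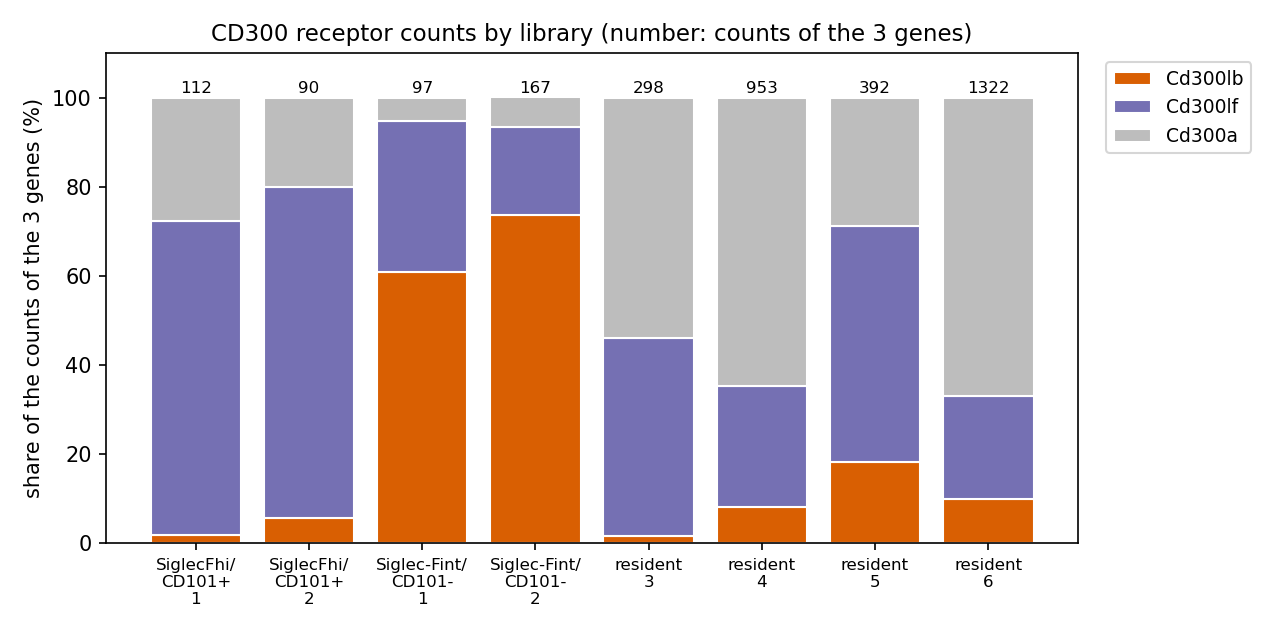
Shares of Cd300lb, Cd300lf and Cd300a in their summed counts, in percent, as stacked bars for each library, with SiglecFhi/CD101+ at the left, Siglec-Fint/CD101- in the middle and resident libraries at the right. The number above a bar is the summed count of the 3 genes, and the Cd300lb share stands at 60.8% and 73.7% in the Siglec-Fint/CD101- libraries, above the other 6.

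The 3 C-type lectin receptors ranged from even to absent. Clec7a encodes Dectin-1, the receptor of fungal beta-glucan, which signals through Syk and CARD9. It had the highest mean CPM of the 9 genes in each group, on a scale of 3' tags, 1 end per transcript, that needs no correction for length. It had 109 and 29.3 CPM in SiglecFhi/CD101+ libraries (205 and 48 counts), 76.3 and 76.4 CPM in Siglec-Fint/CD101- libraries (105 and 123 counts), and 94.8, 91.7, 43.1 and 76.1 CPM in resident libraries (567, 1167, 615 and 1144 counts). The SiglecFhi/CD101+ libraries held the highest and the lowest of the 8 values. The means were 69.0 ± 56.1 CPM in SiglecFhi/CD101+ (SD, n = 2), 76.4 ± 0.0193 CPM in Siglec-Fint/CD101- (SD, n = 2) and 76.4 ± 23.7 CPM in resident libraries (SD, n = 4), and the groups overlapped. The fitted log2 difference from resident was -0.15 ± 0.723 for SiglecFhi/CD101+, and its sign turned with the scaling, being -0.98 where libraries were scaled by totals alone and 0.31 under RLE (relative log expression) factors.

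Clec12a, an inhibitory receptor that senses products of dead cells, had 5.83 and 3.05 CPM in SiglecFhi/CD101+ libraries (11 and 5 counts), 0 in both Siglec-Fint/CD101- libraries, and 26.7, 29.8, 13.7 and 29.6 CPM in resident libraries (160, 379, 195 and 445 counts). The 3 groups did not overlap at any point, with resident libraries highest and Siglec-Fint/CD101- libraries without a count. The means were 4.44 ± 1.97 CPM in SiglecFhi/CD101+ (SD, n = 2) and 24.9 ± 7.65 CPM in resident libraries (SD, n = 4). Against the floor of 3 counts over the group, 1.00 CPM, Clec12a was at least 24.4-fold lower in Siglec-Fint/CD101- than in resident libraries and at least 4.52-fold higher in SiglecFhi/CD101+ than in Siglec-Fint/CD101- libraries. The resident level was 5.41 times that of SiglecFhi/CD101+ libraries (exact 95% interval 3.32 to 9.5), with a fitted log2 difference of -2.48 ± 1.42 for SiglecFhi/CD101+ against resident. Its neighbour Clec7a had 105 and 123 counts in the same Siglec-Fint/CD101- libraries.

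Clec4a2, an inhibitory lectin receptor (DCIR) known from dendritic cells, had 3.71 and 0 CPM in SiglecFhi/CD101+ libraries (7 and 0 counts), 21.8 and 0.621 CPM in Siglec-Fint/CD101- libraries (30 and 1 counts), and 4.51, 33.4, 15.4 and 14.2 CPM in resident libraries (27, 425, 220 and 213 counts). Within each subset 1 library carried nearly all counts. The SiglecFhi/CD101+ libraries were below the resident ones, though by a narrow gap to resident replicate 3, and the other groups overlapped. With mitochondrial counts left out of the totals, SiglecFhi/CD101+ replicate 1 (12.7 CPM) was no longer below resident replicate 3 (12.6 CPM). The fitted log2 difference from resident was -3.15 ± 1.91 for SiglecFhi/CD101+ and -0.59 ± 1.62 for Siglec-Fint/CD101-, and the second was -4.79 without Siglec-Fint/CD101- replicate 1. Near copies such as Clec4a1 and Clec4a3 may share reads with it.

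Of the paired and sialic acid-binding receptors, all 3 are inhibitory. Pirb encodes PIR-B, an inhibitory receptor of MHC class I. It had 3.71 and 0.610 CPM in SiglecFhi/CD101+ libraries (7 and 1 counts), 0.727 and 7.45 CPM in Siglec-Fint/CD101- libraries (1 and 12 counts), and 8.19, 20.7, 7.57 and 10.0 CPM in resident libraries (49, 263, 108 and 151 counts). All 4 subset libraries were below the 4 resident libraries, and Siglec-Fint/CD101- replicate 2 and resident replicate 5 nearly met. With mitochondrial counts left out of the totals, Siglec-Fint/CD101- replicate 2 (24.9 CPM) was above resident replicates 3 (22.9 CPM) and 5 (23.2 CPM). The fitted log2 difference from resident was -2.41 ± 1.71 for SiglecFhi/CD101+ and -1.49 ± 1.62 for Siglec-Fint/CD101-, and the second was -3.99 without Siglec-Fint/CD101- replicate 2. Reads of Pirb may be shared with the closely similar Pira genes.

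Siglece encodes Siglec-E, an inhibitory receptor of sialic acids on mouse neutrophils and macrophages. It had 0 and 25 CPM in SiglecFhi/CD101+ libraries (0 and 41 counts), 0 in both Siglec-Fint/CD101- libraries, and 5.85, 29.3, 8.06 and 5.12 CPM in resident libraries (35, 373, 115 and 77 counts). The SiglecFhi/CD101+ libraries lay on either side of 3 of the resident ones, and resident replicate 4 stood apart from its group. Against the floor, Siglece was at least 12.4-fold lower in Siglec-Fint/CD101- than in resident libraries. It was at least 11.6-fold higher in SiglecFhi/CD101+ than in Siglec-Fint/CD101- libraries, a value that rests on SiglecFhi/CD101+ replicate 2 alone: without it both subsets were at 0.

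Lilrb4a, an inhibitory receptor known from mast cells and macrophages, was at 0 in all 8 libraries, which allows up to 1.59 and 1.83 CPM in SiglecFhi/CD101+, 2.18 and 1.86 CPM in Siglec-Fint/CD101- and 0.199 to 0.501 CPM in resident libraries. Gene models that overlap it held counts. Gm49339, on the same strand, had 17 counts in Siglec-Fint/CD101- replicate 2 and 2 in resident replicate 4, and Gm40645, on the opposite strand, had 11 in SiglecFhi/CD101+ replicate 1 and 34, 124, 44 and 23 in the resident libraries. Reads that fall in more than 1 gene model may be left uncounted or given to another model, and which was done is not given.

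**Figure D2:**
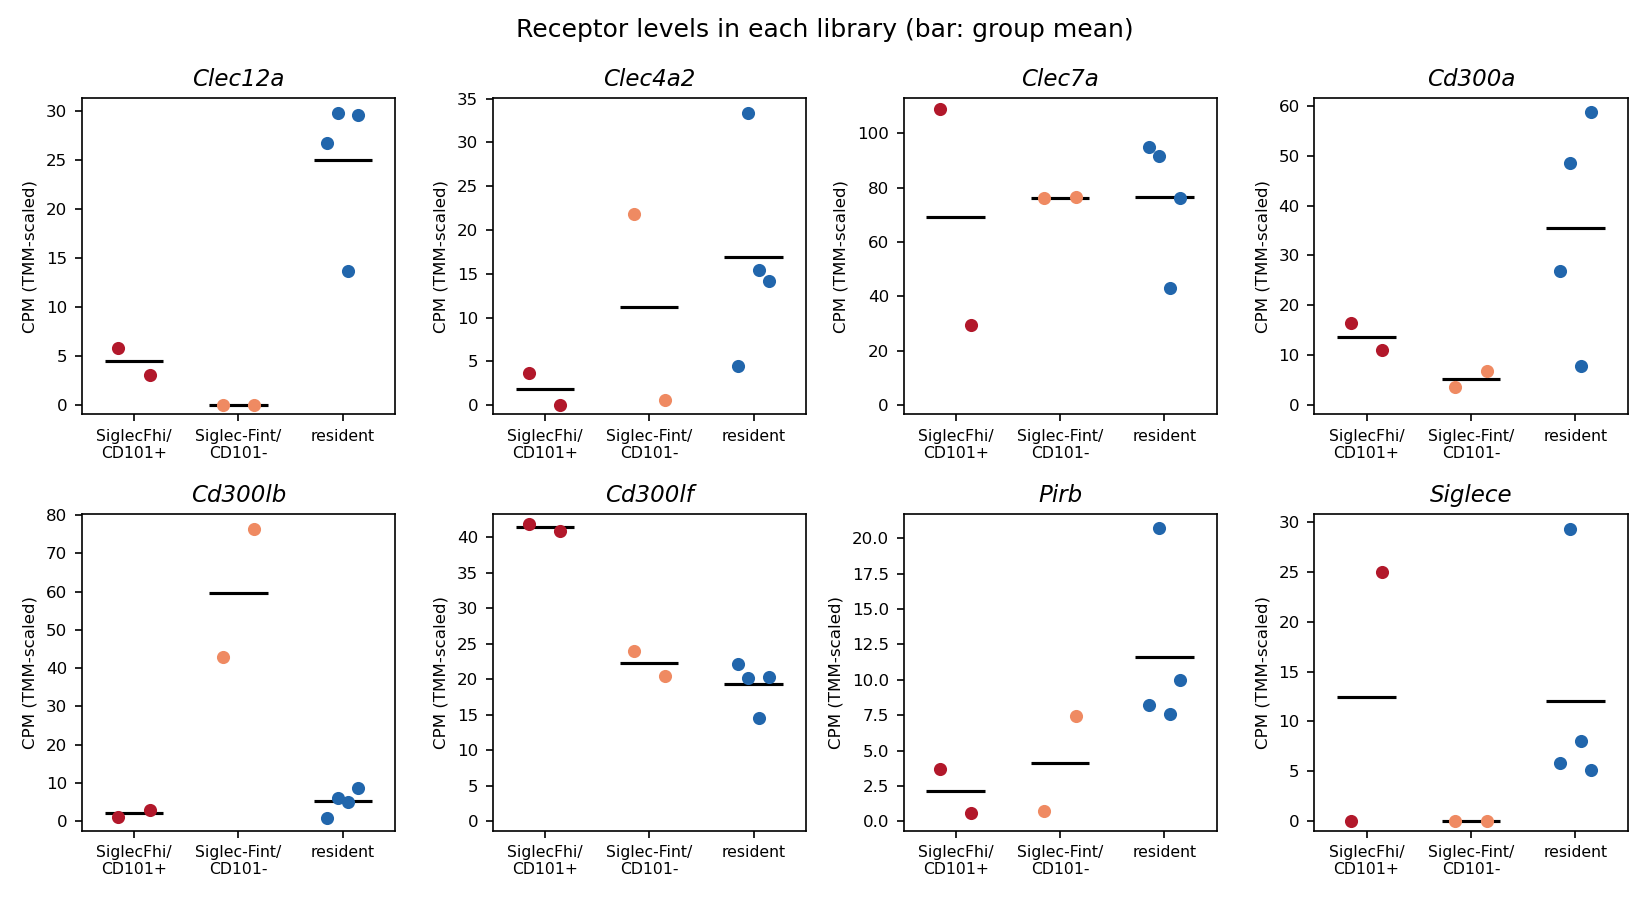
CPM (TMM-scaled) of the 8 receptor genes with a count, 1 panel per gene with its own axis; each point is a library, the bar is the group mean, and groups run SiglecFhi/CD101+, Siglec-Fint/CD101- and resident. Cd300lb stands highest in the 2 Siglec-Fint/CD101- libraries, Cd300lf in the 2 SiglecFhi/CD101+ libraries and Clec12a in the 4 resident libraries.

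Summed over the members, the groups overlapped. The sum was 181 and 113 CPM in SiglecFhi/CD101+, 169 and 188 CPM in Siglec-Fint/CD101- and 190, 280, 115 and 223 CPM in resident libraries. Its mean was 147 ± 48.4 CPM in SiglecFhi/CD101+ (SD, n = 2), 179 ± 13.2 CPM in Siglec-Fint/CD101- (SD, n = 2) and 202 ± 68.7 CPM in resident libraries (SD, n = 4). With mitochondrial counts left out of the totals, the sum was 619 and 416 CPM in SiglecFhi/CD101+, 510 and 629 CPM in Siglec-Fint/CD101-, then 531, 716, 353 and 633 CPM in resident libraries. Clec7a supplied 59.9% and 25.9% of the members' counts in SiglecFhi/CD101+, 45.1% and 40.6% in Siglec-Fint/CD101- and 32.8% to 49.9% in resident libraries. Members with a count numbered 7 in each SiglecFhi/CD101+ library, 6 in each Siglec-Fint/CD101- library and 8 in each resident library. By the root mean square difference of centred log2(CPM + 1) over the 8 libraries, the genes most like the sum were Supt4a (0.156), Rpl7a (0.172), Ubb (0.218) and Rpl19 (0.225), of 5735 candidates. The same measure was 0.347 for Clec7a itself, 0.684 for Cd300lf and 1.01 to 1.99 for the other 6 members.

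All 8 members with a count passed the expression filter, as did 11828 genes in all, and Lilrb4a was not tested. The edgeR quasi-likelihood test (Benjamini-Hochberg adjusted p under 0.05 over all genes tested) called 0 of 8 in each comparison, beside 0.0254% of all genes for SiglecFhi/CD101+ against resident, 0.0592% for Siglec-Fint/CD101- against resident and 0.00845% for SiglecFhi/CD101+ against Siglec-Fint/CD101-. limma-voom also called 0 of 8 in each, beside 0.0169%, 0.0169% and 0% of all genes. At an unadjusted edgeR p under 0.05 there were 0 members for SiglecFhi/CD101+ against resident, 3 for Siglec-Fint/CD101- against resident and 3 between the subsets, beside 16.8%, 15.7% and 17.9% of all genes. The 3 were Cd300lb, Clec12a and Siglece in both comparisons that involve Siglec-Fint/CD101- libraries, which are shared between them. DESeq2 called 1 member for SiglecFhi/CD101+ against resident (Cd300lf, higher), 2 for Siglec-Fint/CD101- against resident (Clec12a, lower, and Cd300lb, higher) and 3 for SiglecFhi/CD101+ against Siglec-Fint/CD101- (Clec12a and Siglece, higher, and Cd300lb, lower), beside 7.95%, 6.24% and 11% of all genes. The values of the groups did not overlap for 4, 5 and 4 of the 8 members, beside 34.1%, 33.7% and 27.7% of all genes. Against resident libraries these were Clec12a, Clec4a2 and Pirb, lower, and Cd300lf, higher, in SiglecFhi/CD101+, and Clec12a, Cd300a, Pirb and Siglece, lower, and Cd300lb, higher, in Siglec-Fint/CD101-. With mitochondrial counts left out of the totals, Clec4a2 in SiglecFhi/CD101+ and Pirb in Siglec-Fint/CD101- overlapped with resident libraries. Cd300lf in Siglec-Fint/CD101- then lay above them. Between the subsets they were Clec12a, Cd300lf and Cd300a, higher in SiglecFhi/CD101+, and Cd300lb, lower. Because levels in these contrasts were known when the genes were listed, these shares describe the list and nothing is read from them.

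The fitted log2 differences of the members had a median of -1.36 for SiglecFhi/CD101+ against resident, -1.04 for Siglec-Fint/CD101- against resident and 0.37 for SiglecFhi/CD101+ against Siglec-Fint/CD101-, and genes at 0 in a group taken at their bound left these medians as they were. The median over all tested genes was -0.72, -1 and 0, or -0.65, -0.71 and 0 with such genes at their bound. It moved with the scaling, from -1.46 with library totals alone to -0.26 with RLE factors for SiglecFhi/CD101+ against resident, and from -1.96 to -0.63 for Siglec-Fint/CD101- against resident. It moved more when 1 library of a 2-library group was left out, and the order of members and all genes then turned. For SiglecFhi/CD101+ against resident, the median was -1.62 for members and -3.15 for all genes without SiglecFhi/CD101+ replicate 1, and -1.97 for members and -2.12 for all genes without SiglecFhi/CD101+ replicate 2. For Siglec-Fint/CD101- against resident, it was -1.57 for members and -3.29 for all genes without Siglec-Fint/CD101- replicate 1, and -1.66 for members and -4.42 for all genes without Siglec-Fint/CD101- replicate 2. The members' median was also above that of all genes in that comparison without either SiglecFhi/CD101+ library (-1.07 and -1.08 for members, -1.52 and -1.53 for all genes) or resident replicate 4 (-0.51 and -0.75). Fitted values were below 0 for 6, 6 and 4 of the 8 members. Cd300lb stood furthest from the median of all genes on the higher side in Siglec-Fint/CD101- against resident libraries. Fits for a group without counts depend on the prior count and are no measure of size, so Clec12a and Siglece are plotted at their bound there.

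**Figure D3:**
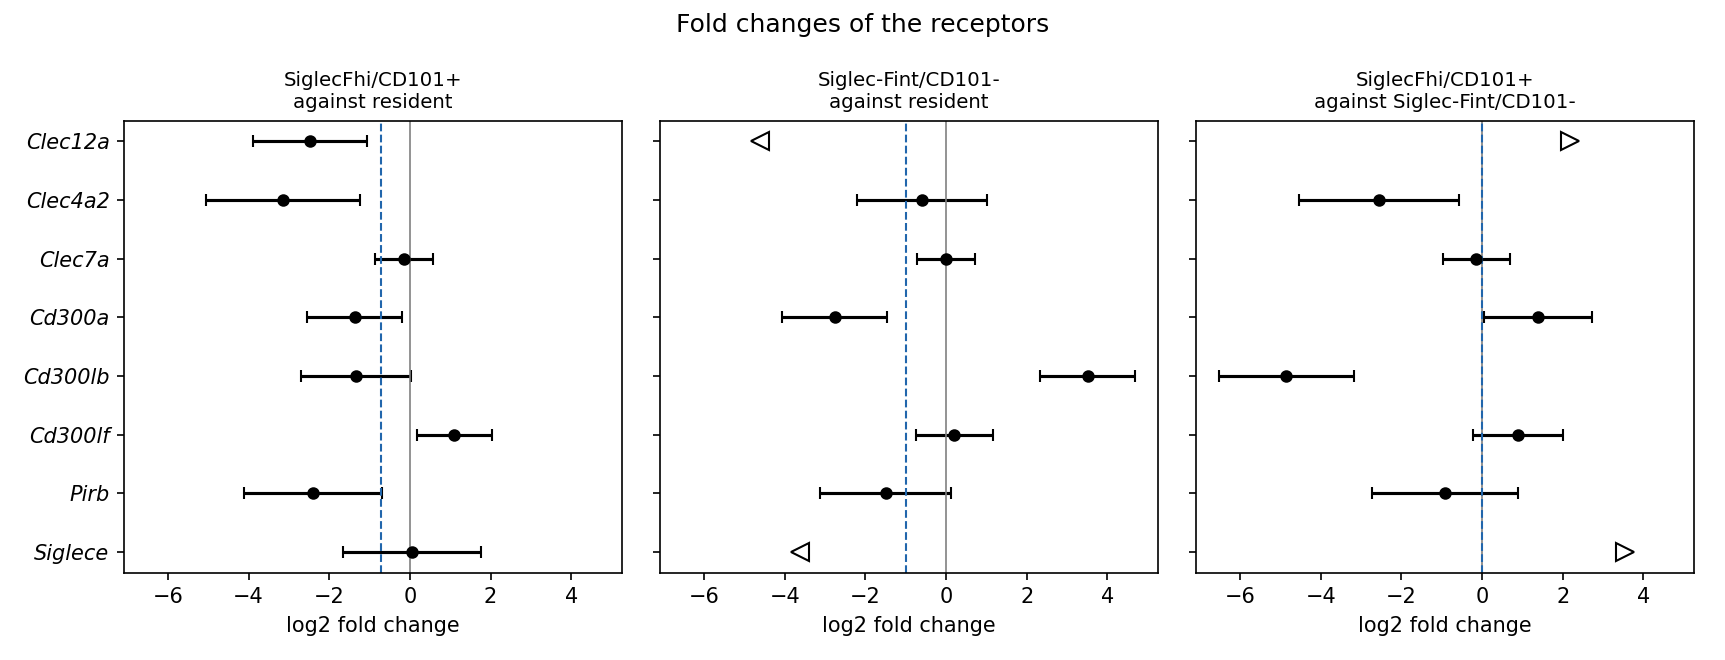
Fitted log2 differences of the 8 members in the 3 comparisons, with the SE as a bar; open triangles are bounds set with 3 counts for a group at 0, and the dashed line is the median of all 11828 genes tested. Cd300lb lies at 3.52 in Siglec-Fint/CD101- against resident libraries and at -4.86 in SiglecFhi/CD101+ against Siglec-Fint/CD101- libraries, and Clec7a near 0 throughout.

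The wider receptor families and their signalling partners were taken from lists of known members: 22 other C-type lectins, 10 other CD300 receptors, 31 other paired immunoglobulin-like and Siglec receptors, 10 inhibitory and 17 activating signalling genes, of which 18, 4, 23, 10 and 16 were tested. Of these 71 genes edgeR called 0 in each comparison, beside the shares of all genes given above, and limma-voom called 0. DESeq2 called 5, 6 and 8, near its shares of 7.95%, 6.24% and 11% of all genes. At an unadjusted p under 0.05, 5 other C-type lectins were lower in SiglecFhi/CD101+ and 3 in Siglec-Fint/CD101- than in resident libraries, and 0 were higher, of 18 tested and beside 16.8% and 15.7% of all genes in either direction. Between the subsets 2 lectins were higher and 3 lower in SiglecFhi/CD101+, beside 17.9% of all genes. The median of these lectins was -2.22 for SiglecFhi/CD101+ and -2.47 for Siglec-Fint/CD101-, each against resident, beside -0.72 and -1 for all genes. With genes at 0 in a group taken at their bound, it was -1.93 and -1.52, beside -0.65 and -0.71 for all genes. Such a contrast may rest on single libraries, though medians without 1 library were computed for all related genes together and not for the lectins alone. Over all related genes the median against resident was -2.92, above -3.15 for all genes, for SiglecFhi/CD101+ without its replicate 1. It was -3.13, above -4.42 for all genes, for Siglec-Fint/CD101- without its replicate 2. Mrc1, the macrophage mannose receptor, had 1.06 and 0.610 CPM in SiglecFhi/CD101+, 24.0 and 18.6 CPM in Siglec-Fint/CD101- and 47.8, 46.8, 19.7 and 38.8 CPM in resident libraries. SiglecFhi/CD101+ libraries were below the rest (log2 difference from resident -5.48 ± 1.41, edgeR adjusted p = 0.13). Clec4b1, a dendritic cell lectin of the family of Clec4a2, had 0 and 0.610 CPM in SiglecFhi/CD101+, 2.18 and 0 CPM in Siglec-Fint/CD101- and 37.1, 52.0, 21.9 and 44.7 CPM in resident libraries. Both subsets were below the resident range for Clec4b1, as for Clec12a. Clec4e encodes Mincle, an activating receptor of mycobacterial glycolipid. It had 23.9 and 37.8 CPM in SiglecFhi/CD101+, 1.45 and 0 CPM in Siglec-Fint/CD101- and 7.35, 0.865, 9.11 and 9.84 CPM in resident libraries, with the SiglecFhi/CD101+ libraries above the other 6. Its log2 difference between SiglecFhi/CD101+ and Siglec-Fint/CD101- was 5.42 ± 2.1 (edgeR adjusted p = 0.243).

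None of the other CD300 genes tested had the profile of Cd300lb, with both Siglec-Fint/CD101- libraries above the other 6. Cd300ld, an activating member of the cluster, had 13.8 and 7.32 CPM in SiglecFhi/CD101+, 2.91 and 0 CPM in Siglec-Fint/CD101- and 14.5, 9.28, 1.40 and 15.6 CPM in resident libraries. Cd300lg, known from endothelium, had 15.4 and 1.22 CPM in SiglecFhi/CD101+, 1.45 and 13 CPM in Siglec-Fint/CD101- and 13.7, 14.9, 25.7 and 34.7 CPM in resident libraries. Endothelial markers, 3 in all, summed to 164 to 171 CPM in SiglecFhi/CD101+, 194 to 281 CPM in Siglec-Fint/CD101- and 83.0 to 259 CPM in resident libraries, and their part in Cd300lg was not tested. The median of the 4 other CD300 receptors was -1.37 for SiglecFhi/CD101+ and -2.22 for Siglec-Fint/CD101-, each against resident, or -1.07 and -1.42 with genes at their bound, and 0 of them had an unadjusted p under 0.05 in any comparison. Among paired receptors Fcgr3, an activating Fc receptor, had 12.7 and 24.4 CPM in SiglecFhi/CD101+, 77.1 and 18.0 CPM in Siglec-Fint/CD101- and 77.7, 139, 51.3 and 81.4 CPM in resident libraries. At an unadjusted p under 0.05, 3 of 23 paired receptors were lower in SiglecFhi/CD101+ and 4 in Siglec-Fint/CD101- than in resident libraries, and 0 were higher, near the 16.8% and 15.7% of all genes. The median of that list was -0.73 for SiglecFhi/CD101+ and -1.66 for Siglec-Fint/CD101-, each against resident, the second being -1.33 with genes at their bound.

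Not every signalling partner was counted in the subsets. Dok1, Src and Card9 were at 0 in all 4 subset libraries, Dok3 and Bcl10 were at 0 in both SiglecFhi/CD101+ libraries, and Card9 had 2 counts in all, both in resident libraries. Among inhibitory partners, Ptpn6, which encodes SHP-1, had 0 and 23.2 CPM in SiglecFhi/CD101+, 28.4 and 130 CPM in Siglec-Fint/CD101- and 96.8, 75.8, 40.9 and 32.8 CPM in resident libraries. The SiglecFhi/CD101+ libraries, which had the most Cd300lf, had less Ptpn6 than the other 6. Inpp5d, which encodes the lipid phosphatase SHIP-1, had 7.95 and 25.6 CPM in SiglecFhi/CD101+, 34.9 and 34.8 CPM in Siglec-Fint/CD101- and 42.8, 78.1, 45.4 and 90.0 CPM in resident libraries. The 3 groups did not overlap in Inpp5d, with a log2 difference from resident of -1.93 ± 0.919 for SiglecFhi/CD101+ (edgeR adjusted p = 0.30). At an unadjusted p under 0.05, 2 of 10 inhibitory genes were lower in SiglecFhi/CD101+ and 1 in Siglec-Fint/CD101- than in resident libraries, near the 16.8% and 15.7% of all genes. The median of the inhibitory list was -1.16 for SiglecFhi/CD101+ and -0.70 for Siglec-Fint/CD101-, each against resident.

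Among activating partners, Fcer1g, the Fc receptor gamma chain, had 32.3 and 139 CPM in SiglecFhi/CD101+, 77.8 and 18.6 CPM in Siglec-Fint/CD101- and 201, 338, 108 and 247 CPM in resident libraries. Its log2 difference from resident was -2.21 ± 0.799 for Siglec-Fint/CD101- (edgeR adjusted p = 0.288). Malt1, which acts downstream of CARD9 and Clec7a, had 76.9 and 29.9 CPM in SiglecFhi/CD101+, 12.4 and 3.10 CPM in Siglec-Fint/CD101- and 243, 145, 47.6 and 149 CPM in resident libraries. Siglec-Fint/CD101- libraries were below the other 6, with a log2 difference from resident of -4.25 ± 0.99 (edgeR adjusted p = 0.176), while Clec7a stood within the resident range in them. Plcg2, a phospholipase activated through Syk, had 2.12 and 1.83 CPM in SiglecFhi/CD101+, 12.4 and 113 CPM in Siglec-Fint/CD101- and 102, 152, 32.6 and 154 CPM in resident libraries. SiglecFhi/CD101+ libraries were lowest in Plcg2, with a log2 difference from resident of -5.78 ± 1.23 (edgeR adjusted p = 0.11). Tyrobp, which encodes DAP12, the adaptor of Cd300lb, averaged 110 ± 91.0 CPM in SiglecFhi/CD101+ (SD, n = 2), 151 ± 22.0 CPM in Siglec-Fint/CD101- (SD, n = 2) and 225 ± 64.4 CPM in resident libraries (SD, n = 4), a gene chosen after its values were seen. Its mean thus did not share the order of groups of Cd300lb. The mean of Hcst, another gene of the activating list and likewise picked after its values were seen, did share that order. Hcst averaged 3.98 CPM in SiglecFhi/CD101+, 30.8 CPM in Siglec-Fint/CD101- and 5.65 CPM in resident libraries. Its Siglec-Fint/CD101- libraries (22.5 and 39.1 CPM) were above the other 6. The log2 difference of Hcst from resident was 2.44 ± 1.66 for Siglec-Fint/CD101- (edgeR adjusted p = 0.439). At an unadjusted p under 0.05, 3 of 16 activating genes were lower in each subset than in resident libraries and 0 were higher, near the 16.8% and 15.7% of all genes. The median of the activating list was -1.39 for SiglecFhi/CD101+ and -2.24 for Siglec-Fint/CD101-, each against resident, the second being -2.19 with genes at their bound.

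**Figure D4:**
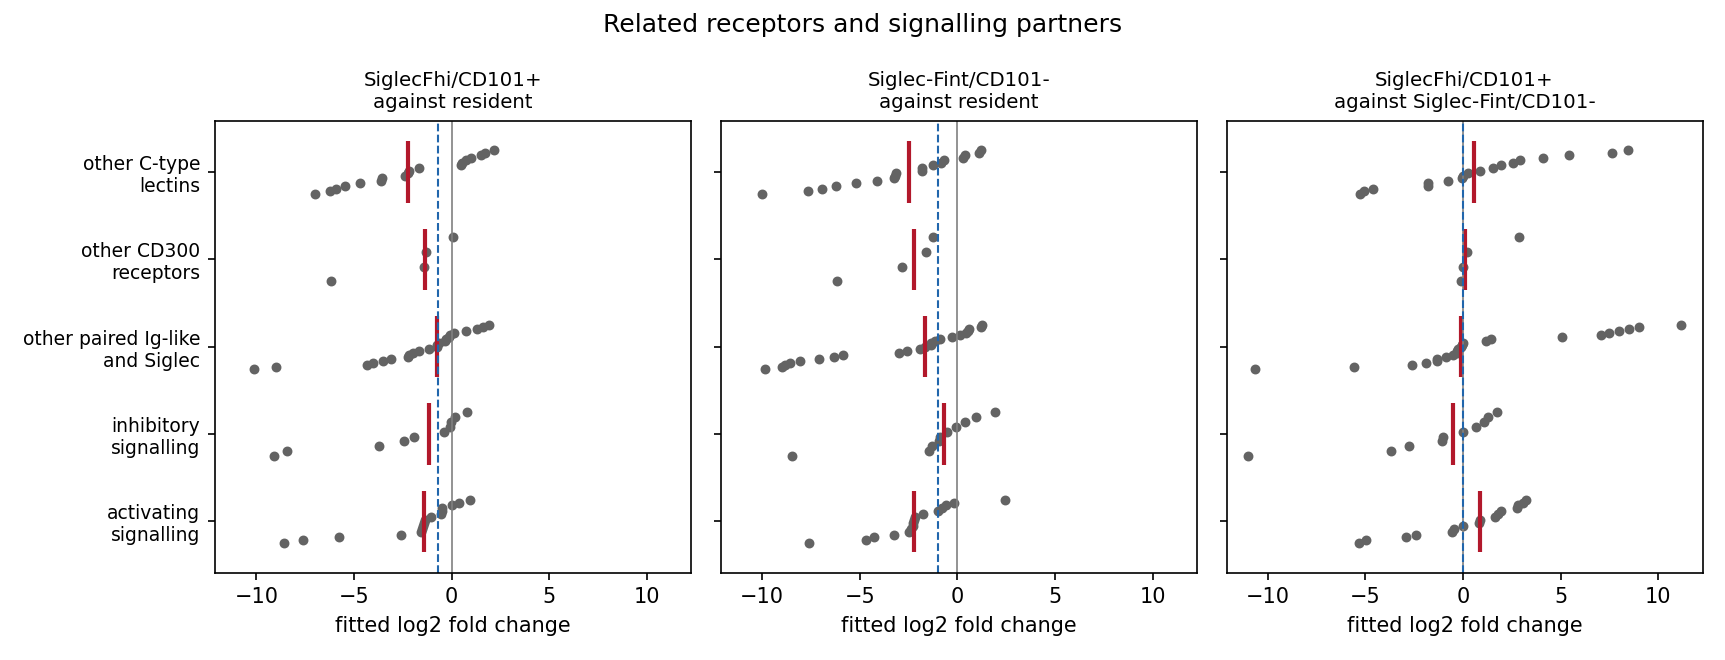
Fitted log2 differences of the related receptors and signalling genes, 1 point per gene tested, by list and comparison; the red bar is the median of a list and the dashed line the median of all 11828 genes tested. Medians of the other C-type lectins lie at -2.22 and -2.47 against resident libraries.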

How the data were processed

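RNA of sorted eosinophils was measured in 8 CEL-Seq libraries, for each of which the authors deposited raw counts of every Ensembl gene as whole numbers, unnormalized as the unequal totals show. Per the submitters' processing notes the tools were FastQC 0.11.5, Trim Galore, cutadapt 1.10, TopHat2 2.1.0, Bowtie2 2.2.6, HTSeq 0.6.1 and DESeq2 1.28.0. For build, annotation, strand setting and molecular identifiers, settings were not given in the sources used here. Counting intervals are too narrow if copies of 1 molecule were counted apart. Groups came from sample titles. The tables' own column names carry the letters I (SiglecFhi/CD101+), R (Siglec-Fint/CD101-) and N (resident), which the labels do not explain, so the match of tables to groups rests on the deposited sample records alone. The labels do not say that libraries came from separate animals, so a p-value reflects the spread between these libraries alone, which can be technical.

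Genes were matched by Ensembl identifier to GENCODE M21 (GRCm38), which named 54409 of 54446. The deposited counts were fitted in R 4.3.3 with edgeR 4.0.16: TMM scaling, filterByExpr, 1 mean per group fitted to the 8 libraries together, and robust two-sided quasi-likelihood tests, Benjamini-Hochberg adjusted over 11828 genes. Genes shared a biological coefficient of variation of 1.12. CPM use TMM-scaled totals, and exact 95% intervals (Clopper-Pearson for shares) and the floor of 3 counts cover counting error only. Alternatives were DESeq2 1.42.0, limma-voom (limma 3.58.1), other scalings and filters, fits without each library in turn, and a replicate block. On simulated data for SiglecFhi/CD101+ against resident libraries with 200 of 11828 genes changed, 0% of 4-fold, 34.3% of 16-fold and 50% of 64-fold changes were recovered, with 3 false calls. The changed genes were drawn from those at or above the median level, so the recovery of sparser genes was not measured.

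The members and all lists were chosen with earlier results of these data known. All 9 members are named, with up to 3 genes of each related list and comparison taken by the smallest p, of which some are printed, and the 5 genes most like the members' sum, among named genes of at least median level, of which 1 is not reported here. Protein sequences were not used here.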

Additional observations from a re-analysis of the deposited data

Results flagged for a closer look

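Siglece in resident replicate 4 stood at 29.3 CPM, apart from 5.85, 8.06 and 5.12 CPM in the other resident libraries, with a gap to its nearest neighbour that exceeds Dixon's 95% critical value for 4 samples. Chance gives such a gap in about 5% of groups. The rule was applied to the resident libraries of each of the 8 members with a count and of their sum, so such a gap can arise by chance among them.

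Cd300lb lay on different sides of the resident mean in the subsets. Both SiglecFhi/CD101+ libraries were below the resident mean of 5.18 CPM and both Siglec-Fint/CD101- libraries above it. The SiglecFhi/CD101+ libraries were within the resident range of 0.836 to 8.78 CPM, so a change from resident is not shown for them. The log2 difference between SiglecFhi/CD101+ and Siglec-Fint/CD101- was -4.86. The test of that difference over all genes did not pass in edgeR (adjusted p = 0.239), and its adjusted p ranged from 0.00442 with DESeq2 to 0.765 over the alternatives.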

How the results depend on the processing

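The count of members called was 0 in all 3 comparisons under every alternative run except DESeq2, with 1 for SiglecFhi/CD101+ against resident, 2 for Siglec-Fint/CD101- against resident and 3 for SiglecFhi/CD101+ against Siglec-Fint/CD101-. For the related genes (71 tested), alternatives were added after seeing the data. DESeq2 called 5, 6 and 8 of them in the same order, beside 7.95%, 6.24% and 11% of all genes. The fit without a filter, which tested 77 of them, called 3, 1 and 1. Leaving out 1 library also changed the count for SiglecFhi/CD101+ against resident. The share called of all genes is not given for those fits, so nothing is read from their counts. The cause of the differing counts was not tested. Of 412 recomputed member log2 differences, 392 lay within 1 SE of the reported value, and 31 changed sign. Single libraries decided several. Without SiglecFhi/CD101+ replicate 2, Siglece was -9.52 against resident and 0 against Siglec-Fint/CD101-. Without SiglecFhi/CD101+ replicate 1, Clec4a2 was -10 and -9.38 (like -9.52, fits with 0 counts left, set by the prior), Pirb -4.3 and -2.77 and Clec7a -1.47 and -1.44 in those comparisons. Between the subsets, Clec4a2 was 1.52 without Siglec-Fint/CD101- replicate 1 and Pirb 1.47 without Siglec-Fint/CD101- replicate 2. Cd300lb kept its sign in every setting run, between 2.46 and 3.91 for Siglec-Fint/CD101- against resident, -5.85 and -4.33 between the subsets, and -2.38 and -0.86 for SiglecFhi/CD101+ against resident. A replicate block was added to the fit of all libraries and read for the comparison of the subsets alone, where 0 members and 0 related genes were called. Deviations of same-numbered libraries correlated at 0.00693 over 2 pairs. With so few libraries this value cannot show whether same-numbered libraries share an animal, sort or batch. Resident libraries share no number with the subsets, and no paired analysis was possible there. Depth limits the members with under 10 counts in a subset library.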
